A study of Mus musculus with 24 samples.

Results

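The mouse hypothalamus was compared between a diet rich in branched-chain amino acids and a diet poor in them. The rich diet, BCAA200, held 200% of the standard content of leucine, isoleucine and valine, and the poor diet, BCAA50, held 50%. All libraries of these diets were taken, which gave 12 of the 24 libraries of the series, 6 per diet. Each diet had 3 females, numbered as replicates 1 to 3, and 3 males, numbered as replicates 4 to 6. The animals were C57BL6 mice, 15 months old, that had eaten their diet freely since 12 weeks of age. All diets were modified from the AIN93G diet and were matched in energy density and in total protein, carbohydrate and fat. Both groups lay on sequencing lane 1, with the 6 libraries of the BCAA20 diet, while the standard diet, BCAA100, lay on lane 2. RNA was total RNA of the dissected hypothalamus, so that fewer cells of a type and less RNA per cell cannot be told apart in any value below.

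Branched-chain amino acids are essential amino acids that mark a protein-rich meal. Large neutral amino acid transporters carry them across the blood-brain barrier, where they compete with tryptophan, the precursor of serotonin. In the hypothalamus leucine is sensed through the kinase complex mTORC1, low amino acids through the kinase GCN2 and the factor ATF4, and neurons of the arcuate and lateral hypothalamus turn such signals into feeding.

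The animals on BCAA200 took in more branched-chain amino acids than those on BCAA50. The intakes that the authors deposited, in a unit that is not stated, ran from 4.33 over a median of 5.4 to 5.81 on BCAA200 and from 0.91 over 1.01 to 1.09 on BCAA50. Every BCAA200 animal lay above every BCAA50 animal. The means were 5.26 ± 0.559 (SD, n = 6) and 1.01 ± 0.0808 (SD, n = 6), a ratio of 5.21 (two-sided exact permutation test, p = 0.00216, the smallest this design allows). A higher intake on BCAA200 was built into the diets unless far less food was eaten, so this test says little about the animals. In content the diets themselves differed by less than the ratio of 5.21. Intake divided by the relative content of the diet ran from 2.165 over 2.7 to 2.905 on BCAA200 and from 1.82 over 2.02 to 2.18 on BCAA50. Of the 6 BCAA200 animals, 5 lay above every BCAA50 animal, and the means differed by a ratio of 1.30 (two-sided exact permutation test, p = 0.00649). Mean intake on BCAA200 was 5.02 in females and 5.50 in males, and on BCAA50 it was 0.937 and 1.08.

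Expression was deposited as FPKM (fragments scaled to transcript length and to the library's mapped total), which keeps no read depth, so the depth of the libraries is unknown. The libraries of both diets summed to between 294432 and 327432 FPKM. Xist, the RNA that coats the inactive X, and Y-linked genes matched the sex label in all 12. Over genes, which are no independent replicates, log2 values of library pairs had Pearson correlations from 0.925 to 0.965 within a diet and from 0.905 to 0.966 between the diets.

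Markers of brain regions differed between libraries of the same diet, and 3 libraries were set apart by Slc17a7 or Hcrt. Slc17a7, the vesicular glutamate transporter of cortex and hippocampus, was at 6.23 FPKM in BCAA50 female replicate 1 and between 132 and 216 FPKM in the other BCAA50 libraries. The same library had the highest sums of the 12 for markers of hypothalamic nuclei (1525 FPKM), thalamus (434 FPKM) and myelin (2988 FPKM). Its sums were the lowest for cortex and hippocampus (223 FPKM) and for tanycytes and ependyma (41.7 FPKM). These 2 sums share Crym, which was at 3.09 FPKM there and between 32.2 and 66.9 FPKM in the other libraries. Hcrt, the orexin peptide of the lateral hypothalamus, was at 0.257 FPKM in BCAA50 female replicate 2 and at 1.65 FPKM in BCAA200 female replicate 2. Pmch, the melanin-concentrating hormone of the same area, was at 8.81 and 43.3 FPKM in these libraries, its lowest value in each diet. Ttr, the transthyretin of the choroid plexus, reached 369 FPKM in BCAA200 male replicate 6 and 672 FPKM in BCAA50 male replicate 6 and lay between 1.18 and 120.1 FPKM in the others. Avp, Pmch and Hcrt were above 0 FPKM in all 12 libraries, although Hcrt was as low as given above. Of 29 listed markers of hypothalamic nuclei, 21 passed the filter on low values. Others were low or absent. Agrp ran from 0.033 to 0.393 FPKM, and Nr5a1 was at 0 FPKM in BCAA200 female replicate 2, BCAA50 female replicate 2 and BCAA50 male replicate 5. Many of the results are also given without the 3 libraries with Slc17a7 under 20 FPKM or Hcrt under 2 FPKM. These were BCAA50 female replicates 1 and 2 and BCAA200 female replicate 2. Libraries that were kept differed in other markers. Striatal sums were 223 FPKM in BCAA200 male replicate 4, 242 FPKM in BCAA50 male replicate 5 and 882 FPKM in BCAA200 female replicate 3. Avp and Oxt were at 2.03 and 1.26 FPKM in BCAA200 male replicate 6. Results without the 3 libraries are thus not free of regional differences.

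**Figure D1:**
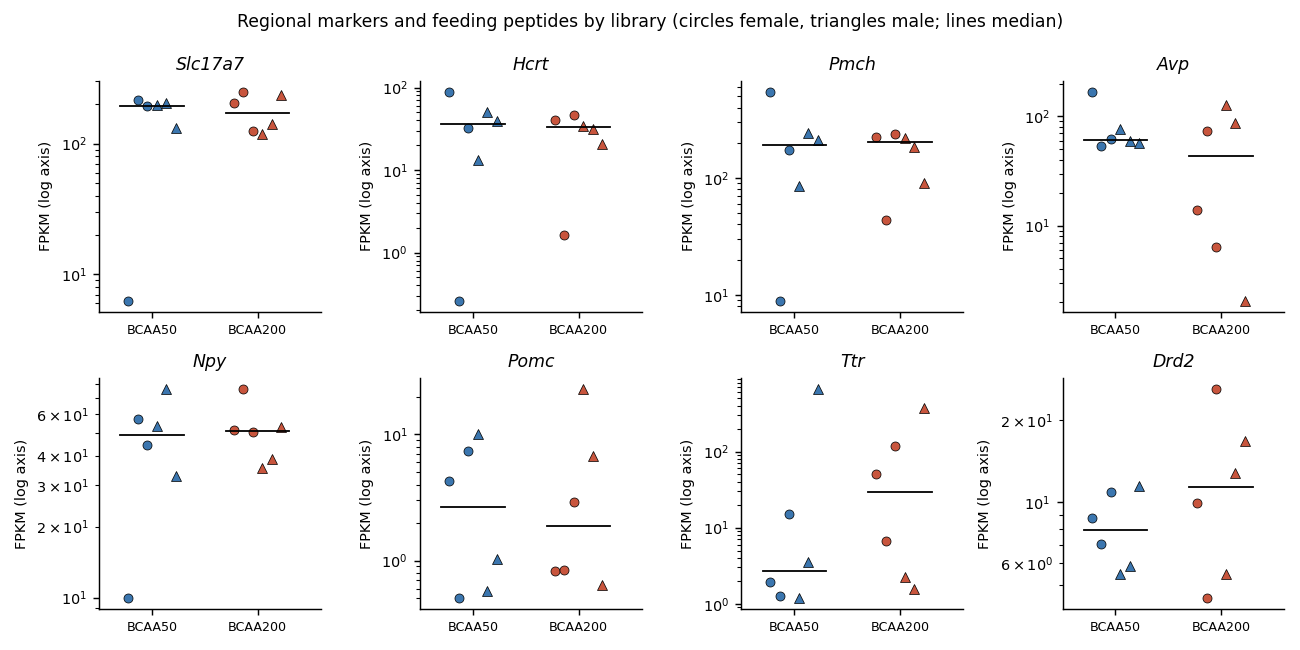
FPKM (log axis) of 8 genes of brain regions and feeding in each BCAA50 (blue) and BCAA200 (red) library, with females as circles, males as triangles and the median of each diet as a line. Slc17a7 is low in a BCAA50 female at 6.23 FPKM, Hcrt is low in a female of each diet at 0.257 and 1.65 FPKM, and the diets overlap in every gene shown.

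Across the whole table no gene passed the test between BCAA200 and BCAA50. Of 13748 genes averaging 1 FPKM or more, 0 (0%) had an adjusted p under 0.05 in limma (Benjamini-Hochberg), and the lowest was 0.99993. At an unadjusted p under 0.05, 339 genes (2.47%) were counted, below the 5% that a table without differences gives on average. Of these 166 (1.21%) were higher and 173 (1.26%) lower on BCAA200. Over all genes the log2 change had a median of -0.0072, and 46.9% of genes lay above 0. A log2 change of at least 1 in size was found for 39 genes (0.284%), with 20 higher and 19 lower on BCAA200. All changes are differences of log2(FPKM + 0.5) with sex as a covariate, which understate the change of genes with low values. The genes below are therefore described by their values, and their unadjusted p ranks them within this table. Counts of list members below stand beside these shares of all genes. Without the 3 libraries that stood apart, 7234 of 13767 genes lay above 0, with a median of 0.0078.

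**Figure D2:**
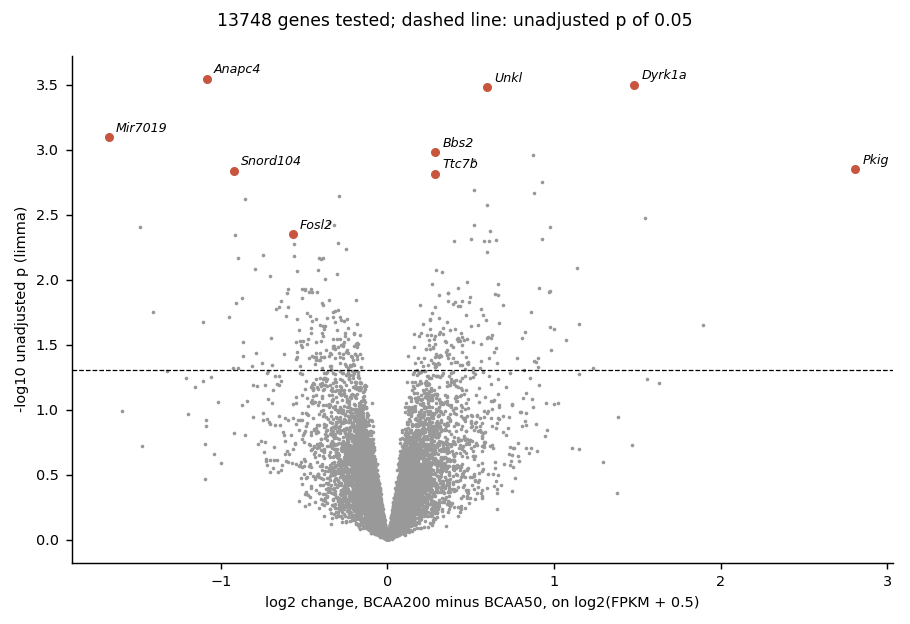
Log2 change (BCAA200 minus BCAA50, on log2(FPKM + 0.5)) against -log10 of the unadjusted p from limma for 13748 genes, with the dashed line at the threshold of 0.05 and named genes in red. The genes spread evenly to both sides, with 166 higher and 173 lower above the line, and 0 passed after adjustment.

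Values of the diets did not overlap in 12 genes (0.0873%), 6 higher and 6 lower on BCAA200 (0.0436% each). The higher ones were Bbs2, Shoc2, Tgfbrap1, Unkl, Dyrk1a and Ttc7b. Among the lower ones were Anapc4, Tmtc3, Tsc22d2, Snord104 and Prickle1. Shoc2, Tgfbrap1, Tmtc3, Tsc22d2 and Prickle1 were named here only after their values were seen.

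Anapc4, a subunit of the anaphase-promoting complex that marks cell-cycle proteins for destruction, had the lowest p of the table. Its level on BCAA200 ran from 10.9 over a median of 12.1 to 12.6 FPKM, and on BCAA50 from 13.2 over 28.3 to 38.5 FPKM. The BCAA200 libraries sat tightly together and below every BCAA50 library, whose lowest value came from female replicate 2. The log2 change was -1.09 ± 0.212 (SE, n = 6 per diet, limma unadjusted p = 0.000285, adjusted p = 0.99993). Levels ran from 12.63 to 30.2 FPKM on BCAA20 and from 30.9 to 37.7 FPKM on BCAA100, so that all BCAA200 libraries lay below the other 18, by a narrow margin over a BCAA20 library. Anapc4 lies on the plus strand at chr5:52834012-52867797 (GRCm38, GENCODE M21), with no overlapping gene. Without BCAA50 female replicate 2 its adjusted p in limma was 0.0522, and without the 3 libraries that stood apart it was 0.245.

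Snord104, a small nucleolar RNA of the class that guides ribosomal RNA modification, ran from 2.18 over 4.73 to 6.66 FPKM on BCAA200 and from 6.85 over 8.72 to 12.8 FPKM on BCAA50. The highest BCAA200 library lay just below the lowest BCAA50 library. The log2 change was -0.92 ± 0.222 (SE, limma unadjusted p = 0.00145).

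Mir7019 had the largest negative change among the genes tested. Its row stands for the precursor, and the mature arms that RefSeq gives for it (GRCm38.p6, minus strand, chr4:138316173-138316195 for the 5p arm and chr4:138316132-138316154 for the 3p arm) are shown because its low values are the only ones of a microRNA among the leading genes; capitals mark the seed, bases 2 to 8.
mmu-miR-7019-5p: aUCUGGGAggggcugucaggagu
mmu-miR-7019-3p: uCACCUUGgccgccucucugcag
The seeds of the arms differ, and the row does not separate the arms. Mir7019 ran from 0.007 over 0.244 to 1.67 FPKM on BCAA200 and from 1.47 over 2.42 to 3.87 FPKM on BCAA50. BCAA200 female replicate 3 lay above the lowest BCAA50 library, and the other BCAA200 libraries lay below all of BCAA50. The log2 change was -1.67 ± 0.372 (SE, limma unadjusted p = 0.000806). The precursor lies inside Pink1, the mitophagy kinase, on the same strand, so reads of the host cannot be told apart from its own. Pink1 itself ran from 95.3 to 112.9 FPKM on BCAA200 and from 103.8 to 132.2 FPKM on BCAA50, with a log2 change of -0.05.

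Of the 10 genes with the lowest p among the lower ones, 6 more had lower median levels on BCAA200, and log2 changes from -0.86 to -0.30. They were Arid5a, which stabilises cytokine mRNA (0.804 against 2.05 FPKM in the median), Jmjd6, a hydroxylase of splicing factors (7.89 against 9.91 FPKM), Thyn1 (20.9 against 27.7 FPKM), Mgat4b, which branches N-glycans (8.73 against 12.6 FPKM), Fosl2 and Ppp1r3c. Ppp1r3c, which brings protein phosphatase to glycogen, ran from 12.6 over 13.5 to 15.2 FPKM on BCAA200 and from 14.7 over 16.8 to 20.4 FPKM on BCAA50. The diets overlapped in all of these genes.

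Among the higher genes Dyrk1a, a dosage-sensitive kinase of brain growth, had the lowest p. It ran from 5.68 over 6.85 to 10.2 FPKM on BCAA200 and from 1.49 over 1.69 to 5.02 FPKM on BCAA50. On BCAA50 its values lay in separate ranges, with 4 libraries between 1.49 and 1.71 FPKM and the others at 4.68 and 5.02 FPKM. The log2 change was 1.48 ± 0.293 (SE, limma unadjusted p = 0.000316). On BCAA20 it ran from 1.36 to 6.25 FPKM and on BCAA100 from 1.32 to 7.25 FPKM, so these diets held both ranges as well.

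Pkig, an inhibitor of protein kinase A, had the largest log2 change of the table, at 2.81 ± 0.674 (SE, limma unadjusted p = 0.00141). On BCAA200 it ran from 14.3 over 21.7 to 31.6 FPKM. On BCAA50, 4 libraries lay between 0.558 and 0.889 FPKM, while female replicates 1 and 2 stood at 16.0 and 20.8 FPKM, inside the range of BCAA200. Without the 3 libraries that stood apart, which include both of these females, Pkig was the gene that passed, 1 of 13767 tested (0.00726%), with a log2 change of 4.01 and an adjusted p of 0.00198 in limma. The libraries were left out for their regional markers and not for Pkig, but their removal takes away the BCAA50 libraries with high Pkig. Low and high values also stood side by side on BCAA20, from 0.843 to 28.5 FPKM, and on BCAA100, from 0.605 to 32.8 FPKM.

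Ttc7b, a scaffold of the complex that makes phosphatidylinositol phosphate at the cell membrane, differed by a small and even step. It ran from 48.0 over 49.8 to 53.2 FPKM on BCAA200 and from 37.3 over 40.3 to 47.1 FPKM on BCAA50, a log2 change of 0.29 ± 0.0695 (SE, limma unadjusted p = 0.00153). Its range was 36.9 to 45.0 FPKM on BCAA20 and 35.4 to 45.9 FPKM on BCAA100, so that all 6 BCAA200 libraries lay above the other 18. In the authors' deposited table its FPKM had a Pearson correlation of 0.742 with intake over all diets, and that of Anapc4 was -0.598. Those coefficients use the same libraries and are not independent of the differences given here.

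Unkl, a zinc finger protein related to unkempt, ran from 4.15 over 6.26 to 7.07 FPKM on BCAA200 and from 3.34 over 3.65 to 4.12 FPKM on BCAA50, a log2 change of 0.60. Bbs2, a subunit of the ciliary BBSome whose loss makes mice obese, ran from 11.04 over 11.9 to 13.0 FPKM and from 9.001 over 9.68 to 10.7 FPKM, a log2 change of 0.29. Neither gene overlapped between the diets, but on BCAA20 and BCAA100 each reached into the range of BCAA200. The remaining genes of the 10 lowest p among the higher ones were Nif3l1 (log2 change 0.87), Add2, the beta-adducin of the membrane skeleton (0.52), Zmynd8, a chromatin reader (0.93), Abi2, a subunit of the actin-regulating WAVE complex (0.52), and Lcorl (0.88). Lcorl on BCAA50 was at 4.05 FPKM in male replicate 5 and between 1.29 and 1.42 FPKM in the others.

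**Figure D3:**
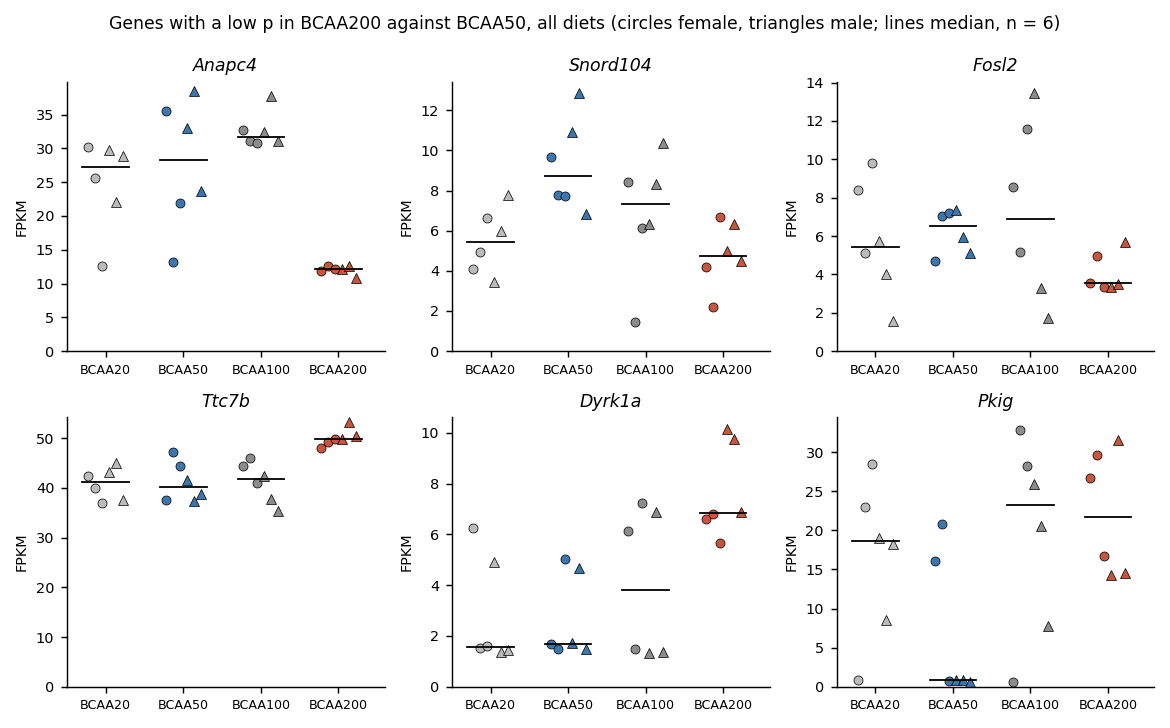
FPKM of 6 genes with a low p in every library of the 4 diets, with BCAA200 in red, BCAA50 in blue, females as circles, males as triangles and the median of each diet (n = 6) as a line. Anapc4 is below and Ttc7b above all 18 other libraries on BCAA200. Anapc4 also reaches down to 13.16 FPKM on BCAA50 and 12.635 FPKM on BCAA20, where the medians are 28.3 and 27.2 FPKM. Dyrk1a and Pkig show separate low and high ranges in the other diets.

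Immediate early genes, which neurons switch on within minutes of activity, lay mostly lower on BCAA200. Of 25 measured, 20 had a negative log2 change and 5 a positive one, with a median of -0.14, against -0.0072 over all genes. At an unadjusted p under 0.05, 4 were lower, namely Fosl2, Arc, Fos and Sik1, and 0 were higher, a share of 16% beside 2.47% of all genes. None passed adjustment. The count describes the list and is no test of it.

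Fosl2, a partner in the AP-1 factor, ran from 3.32 over 3.54 to 5.68 FPKM on BCAA200 and from 4.69 over 6.50 to 7.38 FPKM on BCAA50. Fos, its best known relative, ran from 7.58 over 12.0 to 16.4 FPKM and from 12.8 over 16.1 to 23.8 FPKM. Arc, a protein of active synapses, ran from 13.6 over 18.5 to 23.2 FPKM and from 14.7 over 27.6 to 32.8 FPKM. In each of these genes the upper BCAA200 libraries reached into the range of BCAA50. The log2 changes were -0.57 ± 0.162, -0.46 ± 0.196 and -0.48 ± 0.197 (SE, limma unadjusted p = 0.00447, 0.039 and 0.0313), and that of Sik1, a kinase that holds back CREB targets, was -0.43 ± 0.186. Fos ran from 18.6 to 22.9 FPKM on BCAA20 and from 16.7 to 35.8 FPKM on BCAA100, and its BCAA200 values reached down to 7.58 FPKM, under the 12.8 FPKM that was lowest in the other 18 libraries. Junb had the widest change of the list, at -1.04, with 16.1 ± 9.73 against 21.4 ± 4.70 FPKM (SD, n = 6).

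The count of lower genes was larger without the libraries that stood apart. There 24 of 25 immediate early genes were below 0, the median was -0.27 and 8 were lower at an unadjusted p under 0.05, beside 1.53% of all genes in that fit. Arc had a change of -0.73 there and Sik1 of -0.21. In the same fit cortex and hippocampus markers, which were mostly above 0 in all libraries, had 16 of 17 below 0 with a median of -0.19, and their part in the immediate early genes was not tested. Without BCAA50 female replicate 1 alone, which had the lowest Arc of its diet at 14.7 FPKM, 22 of 25 were below 0 with a median of -0.22, and 5 were lower at an unadjusted p under 0.05, beside 1.1% of all genes. The list median was 0.10 in females and -0.37 in males. An unadjusted p under 0.05 for the diet by sex interaction was found for 5 of 25 members, beside 4.82% of all genes. Arc was among them, with log2 changes of -0.04 in females and -0.93 in males (limma, adjusted p = 0.819 for the interaction).

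The promoters of Fos and Fosl2 are shown because both genes carry this pattern and because Fos is the textbook target of CREB. The sequences are the 250 bases before the RefSeq start (GRCm38.p6, plus strand, chr12:85473640-85473889 and chr5:32136222-32136471). Capitals mark TGACG, the CREB element's core, searched on both strands.
Fos: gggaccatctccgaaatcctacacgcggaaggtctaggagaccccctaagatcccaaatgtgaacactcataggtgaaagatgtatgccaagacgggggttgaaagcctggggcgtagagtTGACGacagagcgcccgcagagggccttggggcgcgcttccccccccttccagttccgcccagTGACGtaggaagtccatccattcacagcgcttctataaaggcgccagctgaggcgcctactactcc
Fosl2: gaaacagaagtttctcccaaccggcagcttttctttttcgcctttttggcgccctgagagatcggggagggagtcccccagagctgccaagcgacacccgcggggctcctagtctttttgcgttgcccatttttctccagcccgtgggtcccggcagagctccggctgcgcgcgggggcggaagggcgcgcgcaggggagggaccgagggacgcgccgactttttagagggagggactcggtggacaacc
The Fos window holds TGACG at positions -129 and -66 from the start, and the Fosl2 window holds none. The same letters are found in 17.8% of 32851 such windows. The full palindrome TGACGTCA, whose letters include this core, is in neither window and in 1.55% of all.

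Genes of cholesterol synthesis also lay mostly lower on BCAA200, but less so without the libraries that stood apart. Of 28 measured, 24 were below 0 with a median of -0.14. At an unadjusted p under 0.05, beside 1.26% of all genes, 3 were lower. Among these were Insig1, the sterol sensor of the endoplasmic reticulum, and Mvd, an enzyme of the mevalonate pathway. Insig1 ran from 13.2 over 17.7 to 22.4 FPKM on BCAA200 and from 17.3 over 21.2 to 25.7 FPKM on BCAA50, a log2 change of -0.27 ± 0.110 (SE, limma unadjusted p = 0.0318). Its change was -0.18 without BCAA50 female replicate 1 and -0.14 without the 3 libraries (limma unadjusted p = 0.103). Mvd ran from 6.88 over 7.54 to 9.78 FPKM and from 7.38 over 9.77 to 13.1 FPKM, a change of -0.32, and of -0.28 without the 3 libraries (limma unadjusted p = 0.0743). The diets overlapped in both. Sqle, the squalene epoxidase, had a log2 change of -0.16. Without the 3 libraries 20 of 27 members were below 0 with a median of -0.05.

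For fatty acid synthesis and desaturation the sign of the list turned with these libraries. Of 20 members 19 were below 0 with a median of -0.10 in all libraries, and 7 were below 0 with a median of 0.02 without the 3. Fasn, the fatty acid synthase, was at 33.9 ± 5.22 against 37.5 ± 6.41 FPKM, and Scd1, the stearoyl desaturase, at 40.4 ± 9.41 against 47.6 ± 15.1 FPKM (SD, n = 6). Myelin markers did the same, with 17 of 18 below 0 and a median of -0.19 in all libraries, against 6 of 18 and a median of 0.04 without them. The myelin sum ran from 806 to 2002 FPKM on BCAA200 and from 1234 to 2988 FPKM on BCAA50, with its lowest value in BCAA200 female replicate 2 and its highest in BCAA50 female replicate 1. The part of myelin in the lipid values was not tested.

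For the enzymes that break down branched-chain amino acids no difference between the diets was detectable, beside the ratio of 5.21 in intake. Of 32 measured, 12 were above and 20 below 0, the median was -0.02, and 0 had an unadjusted p under 0.05. Bcat1, the cytosolic transaminase of brain that takes the first step, was at 12.7 ± 2.67 FPKM on BCAA200 and 12.7 ± 4.10 FPKM on BCAA50 (SD, n = 6), a log2 change of 0.03 ± 0.203 (SE). Bckdk, the kinase that switches off the ketoacid dehydrogenase, was at 8.32 ± 0.690 and 8.33 ± 0.665 FPKM, a change of -0.002 ± 0.0809. Bckdha and Bckdhb, subunits of that dehydrogenase, had log2 changes of 0.09 and -0.07. The lowest p of the list belonged to Hibch, which acts on valine, at 3.94 ± 2.10 against 5.74 ± 1.18 FPKM, a change of -0.65 ± 0.304 (limma unadjusted p = 0.0548).

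The differences of the LAT1 transporter were likewise within the spread. Slc7a5, the light chain of this large neutral amino acid carrier, ran from 13.9 over 15.3 to 16.9 FPKM on BCAA200 and from 12.3 over 15.2 to 16.4 FPKM on BCAA50. Slc3a2, its heavy chain, ran from 43.5 over 45.7 to 53.7 FPKM and from 43.7 over 45.5 to 54.7 FPKM. The log2 changes were 0.03 ± 0.0792 and -0.02 ± 0.0761 (SE). Of 25 transporters measured, 10 were above and 15 below 0. Beside 2.47% of all genes, 1 had an unadjusted p under 0.05, Slc7a1, the carrier of cationic amino acids. It ran from 3.59 over 5.93 to 8.33 FPKM on BCAA200 and from 3.31 over 4.21 to 5.58 FPKM on BCAA50, a change of 0.38 ± 0.157. With the 3 libraries left out 18 transporters were above and 7 below 0, beside 7234 of 13767 genes above 0. The change of Slc7a1 was 0.52 there.

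Of 44 measured genes of amino acid sensing by mTORC1, 20 were above and 24 below 0, with a median of -0.004. At an unadjusted p under 0.05, beside 1.26% of all genes, 1 was lower, Lamtor4, a part of the Ragulator that docks mTORC1 on the lysosome. Its level was 17.6 ± 1.27 against 21.02 ± 3.09 FPKM. Sesn2, a leucine sensor, was at 3.63 ± 0.440 against 3.96 ± 0.478 FPKM. Of 40 targets and partners of ATF4, 15 were above and 25 below 0 with a median of -0.03. At an unadjusted p under 0.05, beside 2.47% of all genes, Slc7a1, which is in the transporter list too, was higher. Ddit4, an mTORC1 inhibitor induced by stress, was lower at that threshold, at 17.5 ± 3.03 against 21.1 ± 2.82 FPKM. Of the mTORC1 genes 24 were above and 20 below 0 without the 3 libraries, and of the ATF4 genes 22 and 18.

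Peptides that govern feeding varied widely between libraries of the same diet. Npy, a hunger peptide, ran from 35.3 over 50.7 to 76.2 FPKM on BCAA200 and from 9.94 over 48.8 to 76.9 FPKM on BCAA50. The lowest value came from BCAA50 female replicate 1, and the log2 change of 0.34 ± 0.415 (SE, limma unadjusted p = 0.435) turned to -0.07 without it. That library had the highest sum for hypothalamic nuclei and the lowest for cortex and hippocampus. Agrp, listed with the markers of hypothalamic nuclei, stayed between 0.033 and 0.393 FPKM in the 12 libraries. The brain region behind the Npy values was not tested. Pomc, the precursor of the satiety peptide alpha-MSH, ran from 0.640 over 1.89 to 23.1 FPKM and from 0.502 over 2.66 to 10.01 FPKM. The range within each diet was wider than the step between their medians.

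Cartpt, another satiety peptide, had a log2 change of 0.16 ± 0.374, Hcrt of 0.11 ± 1.09 and Pmch of 0.20 ± 0.844 (SE). The change of Cartpt was 0.38 and that of Pmch 0.080 without the 3 libraries. Of 20 feeding peptides measured, 12 were above and 8 below 0. Beside 2.47% of all genes, 1 had an unadjusted p under 0.05. This was Tac2, the neurokinin B of arcuate neurons, which ran from 6.89 over 13.1 to 24.5 FPKM on BCAA200 and from 16.7 over 21.7 to 38.4 FPKM on BCAA50, a change of -0.69 ± 0.310. Without the 3 libraries its change was -0.47 (limma unadjusted p = 0.112). Of 19 receptors of feeding and energy signals, 10 were above and 9 below 0 and 0 had an unadjusted p under 0.05. Mc4r, the receptor of alpha-MSH, had a log2 change of -0.23, and Lepr, the leptin receptor, was under the filter on low values.

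Avp, the vasopressin of the paraventricular and supraoptic nuclei, ran from 2.03 over 43.4 to 127 FPKM on BCAA200 and from 53.9 over 61.0 to 169 FPKM on BCAA50. Oxt, the oxytocin of the same nuclei, ran from 1.26 over 17.6 to 150.1 FPKM and from 15.1 over 55.4 to 139 FPKM. The low ends lay in BCAA200 for both, but so did values above the median of BCAA50. The log2 changes were -1.60 ± 0.901 and -1.47 ± 1.06 (SE, limma unadjusted p = 0.103 and 0.192). Of 24 genes of vasopressin, oxytocin and the releasing hormones, 10 were above and 14 below 0.

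Genes of serotonin signalling, the system in which tryptophan competes with branched-chain amino acids for entry, showed 8 of 14 above and 6 below 0 and 0 at an unadjusted p under 0.05. Htr2c, a receptor that restrains feeding, ran from 17.5 over 21.045 to 26.0 FPKM on BCAA200 and from 21.4 over 23.1 to 26.6 FPKM on BCAA50, a log2 change of -0.12 ± 0.0923, and of 0.025 without the 3 libraries. Htr1b, which also restrains feeding, was at 6.34 ± 2.39 and 6.47 ± 2.04 FPKM. Neither receptor differed beyond its spread.

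Genes of the glucocorticoid response, with the receptors Nr3c1 and Nr3c2 included, stood to both sides, with 12 of 23 above and 11 below 0. Xdh, the xanthine dehydrogenase, ran from 1.59 over 3.17 to 3.43 FPKM on BCAA200 and from 1.11 over 1.49 to 3.16 FPKM on BCAA50, a log2 change of 0.65 ± 0.221. Sult1a1, a sulfotransferase, had a log2 change of 0.61 ± 0.241, and both had an unadjusted p under 0.05. Ddit4, which this list shares with the ATF4 list, was lower at the same threshold, with a change of -0.26 ± 0.107. Over all genes 2.47% were under that threshold. Fkbp5, the chaperone that dampens the glucocorticoid receptor, ran from 6.25 over 7.65 to 8.29 FPKM and from 4.04 over 5.74 to 9.60 FPKM, a change of 0.31 ± 0.164 (limma unadjusted p = 0.0842). Plin4, a coat protein of lipid droplets, and Zbtb16, a transcription factor, had log2 changes of 0.73 ± 0.340 and 0.50 ± 0.313. Without the 3 libraries 0 of 23 were higher and 1, which was not Ddit4, was lower at an unadjusted p under 0.05. Over all 13767 genes of that fit 222 were higher and 1.53% lower. There Xdh had a change of 0.55 (limma unadjusted p = 0.0541), Sult1a1 of 0.33, Fkbp5 of 0.15 and Ddit4 of -0.21 (limma unadjusted p = 0.0908).

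Of 21 clock genes, Dbp and Nfil3 had an unadjusted p under 0.05, beside 2.47% of all genes. Dbp, an output of the circadian clock, was higher (28.8 ± 5.96 against 22.4 ± 2.33 FPKM). Nfil3, which opposes it, was lower (4.17 ± 0.817 against 5.31 ± 0.691 FPKM). Of 30 chaperones, 10 were above and 20 below 0, and Hspa8 and Pdia6, which fold proteins in the cytosol and the endoplasmic reticulum, were lower with log2 changes of -0.17 and -0.19. Subunits of oxidative phosphorylation numbered 25 above and 51 below 0 of 76, with a median of -0.03, and 16 above and 60 below 0 with a median of -0.06 without the 3 libraries. Ndufc1 was higher at an unadjusted p under 0.05, with a log2 change of 0.47 and its highest value, 27.8 FPKM, in BCAA200 female replicate 2. Its change was 0.27 without that library and 0.24 without the 3 (limma unadjusted p = 0.153). Ribosomal proteins numbered 36 above and 43 below 0 of 79. Rpl11 was higher and Rplp2 and Rplp0 lower at that threshold. Without the 3 libraries the changes were 0.22 for Rpl11 and -0.24 for Rplp0, neither with an unadjusted p under 0.05. Rplp2 had a change of -0.34 there (limma unadjusted p = 0.0323). Values of ribosomal proteins are uncertain because near-identical pseudogenes can share their reads. Interferon and MHC genes had 17 of 21 above 0 with a median of 0.10 and 0 at an unadjusted p under 0.05. Genes of GABA signalling numbered 7 above and 16 below 0, of glutamate signalling 23 and 14, of insulin and IGF signalling 17 and 15, and of the opioid and endocannabinoid systems 13 and 3. The GABA list had 16 above and 7 below 0 without the 3 libraries, and the opioid and endocannabinoid list 10 and 6.

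Medians of region and cell type markers lay as far from 0 as those of any pathway. Striatal markers had 15 of 16 above 0 with a median of 0.38, and 15 of 16 with a median of 0.29 without the 3 libraries. Their summed level ran from 223 over 516 to 882 FPKM on BCAA200 and from 226 over 428 to 487 FPKM on BCAA50, and none had an unadjusted p under 0.05. Ppp1r1b, the DARPP-32 of striatal neurons, was at 101 ± 64.2 against 58.5 ± 33.0 FPKM, and Drd2 ran from 4.46 to 26.0 FPKM against 5.48 to 11.5 FPKM. The dopamine and noradrenaline list, which shares Drd1, Drd2 and Ppp1r1b with the striatal one, had 12 of 15 above 0 with a median of 0.22, and 0.13 without the 3 libraries. Slc6a3, the dopamine transporter of dopamine neurons, had its largest change, at 1.29 (limma unadjusted p = 0.255), and Th, the tyrosine hydroxylase, had 0.60.

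For markers of hypothalamic nuclei, cortex and thalamus the sign of the median turned when the libraries that stood apart were left out. Hypothalamic nuclei had 15 of 21 below 0 with a median of -0.19 in all libraries, and 8 of 21 with a median of 0.07 without the 3. Cortex and hippocampus had 3 of 17 below 0 with a median of 0.14, and 16 of 17 with -0.19 without them. Thalamus had 10 of 12 below 0 with a median of -0.20, and 1 of 10 with 0.15 without them. Lef1, a factor of thalamic neurons, stood out in the first count, at 0.062 to 0.763 FPKM on BCAA200 and 0.079 to 5.42 FPKM on BCAA50.

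Meningeal, tanycyte and endothelial markers lay mostly above 0, with smaller medians without the 3 libraries. Meningeal markers had 12 of 13 above 0 with a median of 0.25 in all libraries, and 8 of 13 with 0.11 without the 3. Tanycyte and ependymal markers had 11 of 14 with 0.24, and 10 of 14 with 0.049. Endothelial markers had 13 of 18 with 0.11, and 11 of 17 with 0.029. Abcb1a, a pump of the blood-brain barrier, and Ly6a were higher at an unadjusted p under 0.05 in all libraries, beside 1.21% of all genes. Without the 3 libraries 0 endothelial markers were. Of the lists, blood cell markers had the largest median, at 0.49 with 5 of 5 measured above 0, and 0.12 with 4 of 5 without the 3. Their summed level ran from 315 over 434 to 1629 FPKM on BCAA200, with the highest in female replicate 2, and from 246 over 378 to 499 FPKM on BCAA50. Astrocyte and microglia markers had 5 of 16 above 0 each, with medians of -0.05 and -0.03. The part of tissue makeup in the gene values above was not tested.

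**Figure D4:**
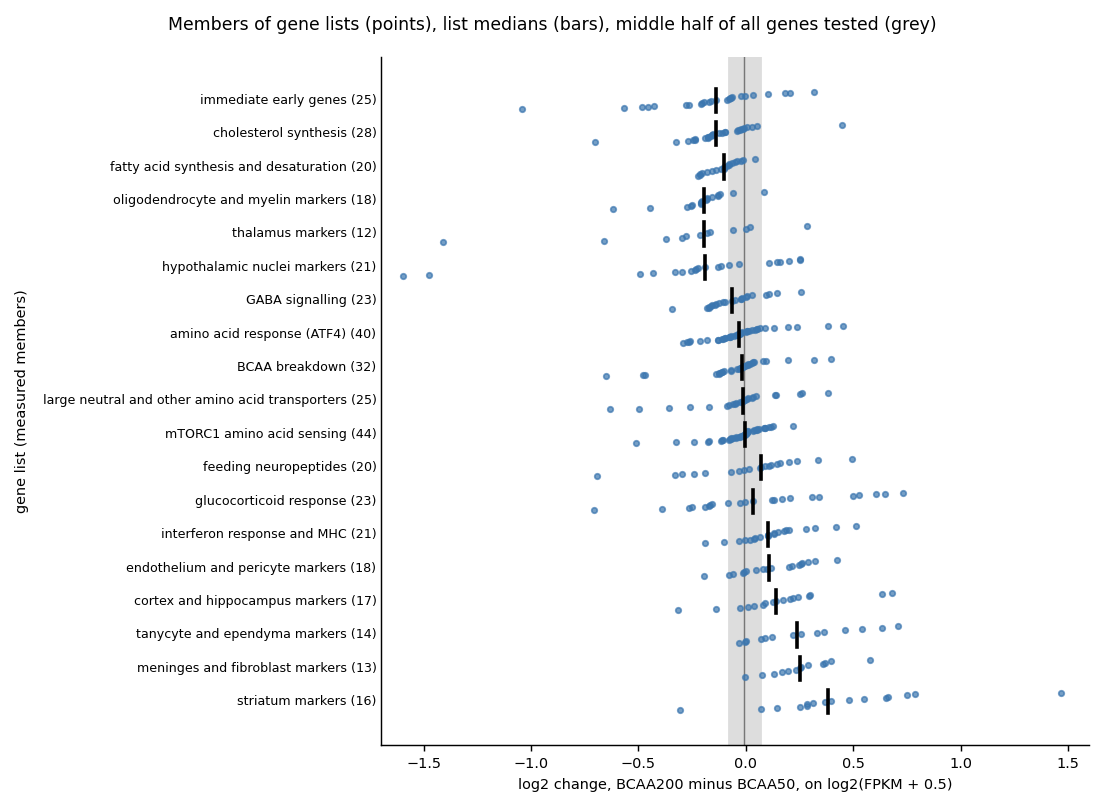
Log2 change (BCAA200 minus BCAA50, on log2(FPKM + 0.5)) of each measured member (points) of 19 gene lists, their medians (black bars) and the middle quartiles of all 13748 genes (grey band). Immediate early, cholesterol and myelin genes lie to the left with medians of -0.14, -0.14 and -0.19, BCAA breakdown is centred at -0.02, and striatal markers lie to the right at 0.38.

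The difference between the diets was also compared between females and males. Of 13748 genes 0 (0%) passed for the diet by sex interaction in limma, with a lowest adjusted p of 0.819, and 662 (4.82%) had an unadjusted p under 0.05. Within females 0 (0%) passed and 548 (3.99%) had an unadjusted p under 0.05, and within males 0 (0%) and 396 (2.88%). The 3 libraries that stood apart are all female, and 1 BCAA50 female is left without them.

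Hace1, a ubiquitin ligase, had the lowest adjusted p within females, at 0.0825 in limma. Its level in females ran from 10.1 to 11.1 FPKM on BCAA200 and from 1.67 to 3.73 FPKM on BCAA50, and in males from 9.15 to 9.48 and from 7.58 to 11.5 FPKM. The BCAA50 females were low and the other groups lay close together. The log2 change was 1.81 ± 0.219 in females and 0.01 ± 0.219 in males (SE, n = 3 per group, limma, adjusted p = 0.819 for the interaction). D1Ertd622e had the same layout, from 0.802 to 0.926 FPKM in BCAA50 females and from 2.80 to 10.5 FPKM in all other libraries of these diets.

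Genes with the opposite layout were high in BCAA50 females. Ttll7, which adds glutamate to tubulin in neurons, ran from 47.0 to 56.5 FPKM there and from 18.8 to 25.5 FPKM in BCAA200 females, with 24.2 to 29.2 FPKM and 27.5 to 49.6 FPKM in males on BCAA50 and BCAA200. Chd8, a chromatin remodeller, ran from 21.3 to 25.9 FPKM in BCAA50 females and from 13.2 to 13.9 FPKM in BCAA200 females, and its ranges overlapped in males. Its log2 change was -0.79 in females and 0.19 in males. Parg, which removes poly-ADP-ribose, had log2 changes of -0.72 and 0.21.

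Mir761 was the microRNA of this group, and its mature sequence (RefSeq, GRCm38.p6, chr4:109017669-109017690, plus strand, inside Nrd1) is shown with its seed, bases 2 to 8, in capitals.
mmu-miR-761: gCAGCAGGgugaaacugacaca
Its seed differs from those of both arms of Mir7019. The precursor's row was at 3.52 ± 0.207 FPKM in BCAA200 females and 2.74 ± 0.320 FPKM in BCAA50 females, and at 1.74 ± 0.0762 and 3.34 ± 0.560 FPKM in males (SD, n = 3). All BCAA200 males lay below all other libraries of these diets. The log2 change was 0.32 in females and -0.77 in males (limma, adjusted p = 0.819 for the interaction), and reads of Nrd1, on the same strand, cannot be told apart from those of the precursor.

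**Figure D5:**
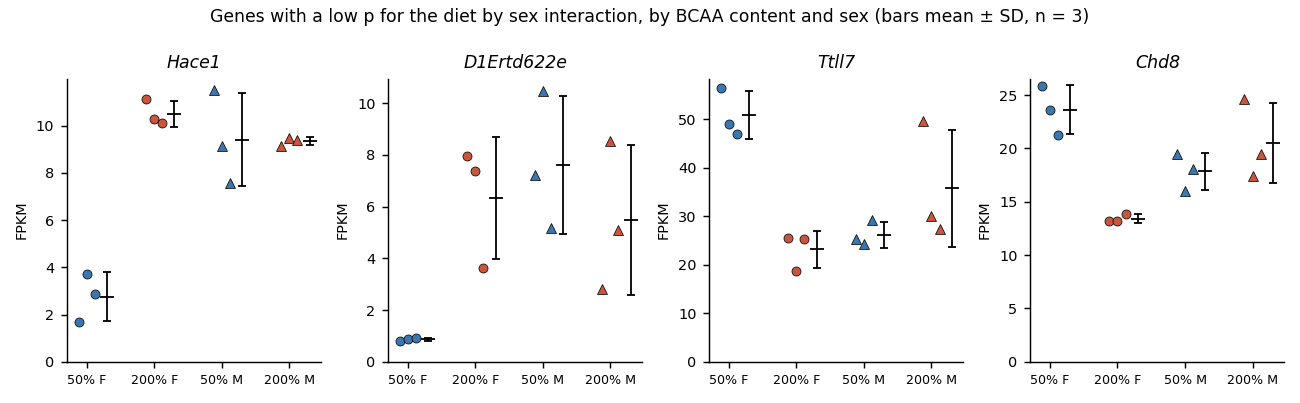
FPKM of 4 genes with a low unadjusted p for the diet by sex interaction in females (F) and males (M) on 50% (blue) and 200% (red) BCAA content, with the mean ± SD (n = 3) beside the points. Hace1 and D1Ertd622e are low and Ttll7 and Chd8 high in BCAA50 females, and 0 of 13748 genes passed after adjustment.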

How the data were processed

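Total RNA of mouse hypothalamus was sequenced after stranded TruSeq preparation, per the labels' protocols. The authors deposited FPKM per gene symbol and library. Per the submitters' processing notes TopHat2 2.0.14, StringTie 1.2.4 and GRCm38 were used, with no role or order given. The deposited table also held BCAA intake per animal (score without a stated unit), the authors' Pearson coefficient between FPKM and intake for each gene (score) and its p-value. It listed 18777 symbols. Of these 22 were spreadsheet dates and are not named, and 0 of 15 mitochondrially encoded genes were listed.

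Genes averaging 1 FPKM or more in the 12 libraries (13748, of them 1942 predicted or unnamed) were tested as log2(FPKM + 0.5) on diet and sex with limma 3.58.1 in R 4.3.3, with trend and robust moderation and 9 residual degrees of freedom. The p-values are two-sided, are adjusted over all genes by Benjamini-Hochberg and measure the spread between animals, 3 per sex and diet per the series' design. The fit was checked on simulated data with independent noise per gene and library. Those data hold no library-wide differences and no genes with separate low and high ranges, so the check does not cover these. Intake was tested by exact permutation (Python 3.11.15, scipy 1.17.1). Genes were named as the 10 lowest p per direction (passing over 2 predicted or unnamed ones, both lower), up to 4 members per list with p under 0.05, a fixed set, and the 3 lowest interaction p per direction. A few genes that this rule or a list takes in are not reported here. Genes, lists and the comparison were chosen with earlier results of these data known. Alternatives varied the pseudocount, filter, scaling, covariates, weights and libraries.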

Additional observations from a re-analysis of the deposited data

Results flagged for a closer look

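In 11 of 152 groups of 6 values examined, the highest or lowest library was far from the others by Dixon's ratio at its 95% limit, and chance gives about 1 in 20 groups. Of these, 6 lay in 2 of the 3 libraries that stood apart. Those libraries were picked by low Slc17a7 or Hcrt, and both genes are among the 6, so the flags are not independent of that choice. BCAA50 female replicate 1 had Slc17a7 at 6.231 FPKM (others 132 to 216), Arc at 14.706 (26.1 to 32.8) and Avp at 169.3 (53.9 to 76.4). BCAA200 female replicate 2 had Hcrt at 1.649 FPKM (20.7 to 47.0), Htr1b at 2.025 (5.80 to 8.504) and Slc3a2 at 53.685 (43.5 to 46.2).

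The others were males. BCAA50 male replicate 5 had Lcorl at 4.047 FPKM (1.29 to 1.42) and Slc7a5 at 12.327 (14.8 to 16.4). BCAA50 male replicate 6 had Nfil3 at 3.972 FPKM (5.21 to 5.88) and Ttr at 672.178 (1.18 to 15.2). BCAA200 male replicate 4 had Lef1 at 0.763 FPKM (0.062 to 0.106). What sets these libraries apart was not tested.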

How the results depend on the processing

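No gene passed between BCAA200 and BCAA50 under any setting tried except without the 3 libraries that stood apart, a setting chosen after seeing the data, where 1 did (Pkig). The count at an unadjusted p under 0.05 was 533 without a filter (289 higher), 189 at a mean of at least 5 FPKM (88 higher, 101 lower), where fewer genes are tested, and 528 with array weights (279 higher). Leaving out 1 library at a time gave 0 genes passing, 292 to 440 at an unadjusted p under 0.05, 137 to 221 higher and 136 to 239 lower. For the diet by sex interaction the unadjusted count was 428 at a mean of at least 5 FPKM and 1250 with array weights. Leaving out 1 library gave 437 to 1130, and 0 to 2 genes passed. These were Galc without BCAA50 male replicate 6, Capn5 without BCAA200 female replicate 3, and 2 predicted genes without BCAA50 female replicate 2, all named after their values were seen. The difference in intake stayed between 4.14 and 4.43, and its difference of medians was 4.39 (exact permutation test, p = 0.013).

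Signs turned only for genes near 0 or with wide spread, none of them called. Npy was at -0.073 without BCAA50 female replicate 1 and -0.14 without the 3 libraries. Slc17a7 was at -0.14 and -0.18 there. Htr1b was at 0.020 and 0.27 there and 0.044 with array weights. Pomc was at -0.17 and Xist at -0.010 with array weights, Xist also at -0.0029 with a pseudocount of 0.1 and -0.016 without BCAA50 female replicate 1. Bckdk was at 0.0010 after median centring, 0.0026 after quantile normalization and 0.0022 without that library. Without the 3 libraries Htr2c was at 0.025 and Ttll7 at 0.0040. Leaving out 1 library at a time, log2 changes ran from -0.073 to 0.53 for Npy, -0.42 to 0.55 for Pomc, -0.075 to 0.40 for Cartpt, -0.83 to 0.73 for Hcrt, -0.58 to 0.73 for Pmch, -0.28 to 0.23 for Htr1b, -0.082 to 0.20 for Bcat1, -0.042 to 0.033 for Bckdk, -0.024 to 0.064 for Slc7a5, -0.069 to 0.025 for Slc3a2, -0.14 to 0.97 for Slc17a7 and -0.016 to 0.031 for Xist. The cause of these shifts was not tested.

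The labels give both diets the replicate numbers 1 to 6. Deviations of same-numbered libraries correlated from -0.086 to 0.22. For 2 of 6 BCAA200 libraries the same-numbered BCAA50 library was the best match among those of its sex. The lowest Hcrt fell in replicate 2 of both diets and the highest Ttr in replicate 6 of both. What same-numbered libraries share beyond the number was not tested. With the replicate block 0 genes passed and 359 had an unadjusted p under 0.05. No library's sex-linked genes went against its label, so the fit with sex read from them was not run. Depth is unknown and limits what low values can show.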
